A study of Mus musculus with 4 samples.

Results

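Thermogenic fat regulators, the genes that mark or drive heat-producing fat, were followed in whole back skin of mice with 1 or no working copy of Bmal1. The set was fixed by name as 10 genes: Ucp1, Cidea, Ppargc1a, Prdm16, Dio2, Cpt1b, Kcnk3, Zic1, Ebf2 and Adrb3. A gene was read where a probe set, the group of array probes for a transcript, was paired with its symbol and no other, which held for 8 genes and 9 of the 21789 such probe sets. Ppargc1a had 2 probe sets. The Cpt1b probe set was also annotated to Gm44502, so Cpt1b has no value here, and Adrb3 was not analysed here.

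All mice were C57Bl6, postnatal day 22, with resting (telogen) hair follicles, and skin was taken at ZT22, where ZT counts the hours since lights on. The 2 control mice were heterozygous for Bmal1 (gene symbol Arntl), with 1 mutant and 1 wild-type allele, and the 2 knockout mice lacked both alleles from the germline on, in every tissue. Controls therefore carry a Bmal1 mutation too, and no wild-type mice were compared. Each mouse gave 1 Affymetrix whole-transcript array, and their number limits the precision. The comparison asked how skin transcripts differ without Bmal1 late in the dark phase.

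Brown fat and the inducible beige cells of white fat burn lipid to make heat. Noradrenaline acts through beta-adrenergic receptors and cyclic AMP on PGC-1 alpha (Ppargc1a) and on the Ucp1 gene, and UCP1 then lets protons leak across the inner mitochondrial membrane. PRDM16, EBF2 and ZIC1 are transcription factors used as marks of the brown fat lineage. The clock is known to reach this program through REV-ERB alpha (Nr1d1), a repressor whose gene BMAL1 and CLOCK activate. Back skin lies on a layer of white fat and a thin sheet of skeletal muscle and holds sebaceous glands. Several of the genes are known to be used there too: Ppargc1a and Dio2 in muscle, and Cidea in the lipid-filled cells of the gland.

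The promoter table used here (RefSeq, GRCm38.p6) held 5 of the 10 listed genes. The 250 bases before the start site are shown for the gene that passed the test (Ppargc1a), for the defining gene of heat production (Ucp1), and for Dio2 and Zic1, which each hold a whole site of interest here. Capitals mark matches on either strand to CACGTG, the E-box bound by BMAL1 and CLOCK, to TGACGTCA, the cyclic AMP response element, to TGACG, a stretch of it that also lies within TGACGTCA, and to AGGTCA, a half-site of nuclear receptors such as REV-ERB alpha and PPARs. The windows are Ppargc1a at chr5:51567726-51567975 (- strand), Ucp1 at chr8:83290098-83290347 (+ strand), Dio2 at chr12:90739039-90739288 (- strand) and Zic1 at chr9:91365769-91366018 (- strand).

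Ppargc1a: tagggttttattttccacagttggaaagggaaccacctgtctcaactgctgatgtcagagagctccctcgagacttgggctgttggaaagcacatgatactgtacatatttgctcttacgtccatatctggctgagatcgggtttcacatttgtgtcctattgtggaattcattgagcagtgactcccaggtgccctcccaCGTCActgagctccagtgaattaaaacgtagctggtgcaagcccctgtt

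Ucp1: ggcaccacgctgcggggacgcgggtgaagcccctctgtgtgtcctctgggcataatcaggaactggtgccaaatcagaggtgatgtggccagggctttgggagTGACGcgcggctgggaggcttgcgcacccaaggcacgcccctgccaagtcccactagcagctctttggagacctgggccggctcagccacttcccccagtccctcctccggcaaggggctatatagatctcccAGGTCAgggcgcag

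Dio2: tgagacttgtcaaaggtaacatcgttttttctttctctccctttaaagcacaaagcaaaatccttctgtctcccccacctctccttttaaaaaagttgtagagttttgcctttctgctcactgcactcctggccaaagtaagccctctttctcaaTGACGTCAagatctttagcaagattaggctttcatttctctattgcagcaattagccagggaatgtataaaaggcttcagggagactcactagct

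Zic1: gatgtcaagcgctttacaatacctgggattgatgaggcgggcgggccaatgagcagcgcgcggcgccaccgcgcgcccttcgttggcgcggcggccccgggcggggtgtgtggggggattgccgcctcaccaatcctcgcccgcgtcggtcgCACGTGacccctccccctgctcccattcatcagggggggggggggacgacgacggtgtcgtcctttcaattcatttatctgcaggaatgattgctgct

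CACGTG was found in the Zic1 window, 98 bases before the start, and in 6.02% of the 32851 promoter windows of this length. TGACGTCA was found in the Dio2 window, 95 bases before the start, and in 1.55% of windows. TGACG without the rest of the element stood in the Ppargc1a and Ucp1 windows, 49 and 147 bases before the start, a motif that 17.8% of windows hold. The Ucp1 window also held AGGTCA, 14 bases before the start, a motif of 14% of windows. The window of Prdm16, the fifth gene listed, held none of these letters. These are matches of letters only.

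The heterozygous and knockout arrays matched their labels at Bmal1: the Arntl probe set read 8.90 and 9.08 in heterozygous skin and 8.29 and 8.16 in knockout skin (log2). Its probes may lie outside the deleted part. Of the 7 markers listed for epidermis and follicle, 6 were tested and read between 11.3 and 13.5 in every array. Of 16341 probe sets tested with limma, 323 (1.98%) passed an adjusted p of 0.05, 241 of them higher (1.47%) and 82 lower (0.502%). None of 17557 passed when probe sets of several genes were tested as well, a setting in which 2713 (15.5%) had an unadjusted p under 0.05. Heterozygous array 2 stood apart in slow-fibre muscle genes, where Myl2 read 8.19 there and between 6.07 and 6.32 in the other arrays.

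Values below are quantile-normalized log2 signals, and a difference is knockout minus heterozygous on that scale. Among the 8 member probe sets above the filter on low values (6.67), 1 passed, the second Ppargc1a probe set, beside 1.98% of all tested. The 8 stood for 7 genes, as both Ppargc1a probe sets were among them. An unadjusted limma p under 0.05 was found for 3 of the 8, Cidea and both Ppargc1a probe sets, all higher in the knockout. Of all tested probe sets, 17.9% had such a p in either direction and 11.6% upward. Both knockout arrays lay outside the heterozygous range in 4 of the 8, against 49.8% of all tested probe sets, so the share was that of the background. In all 4 the knockout arrays were the higher, as in 27.8% of those tested. These were Cidea, both Ppargc1a probe sets and Ebf2, and Ebf2 overlapped as deposited. The mean was higher in the knockout in 5 of the 8, against 54.2%. The median difference of the 8 was 0.04, and that of all tested probe sets was 0.02.

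**Figure D1:**
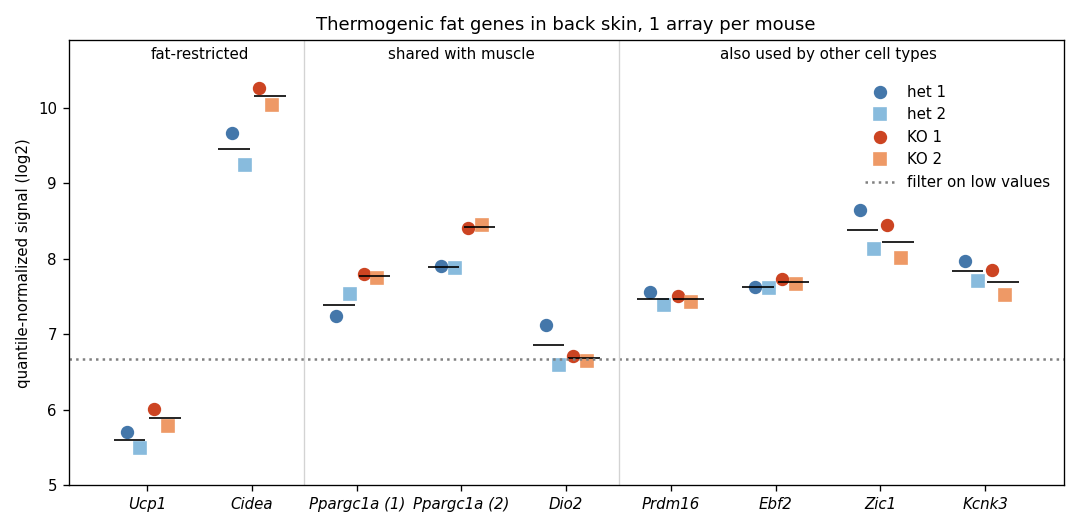
Quantile-normalized signal (log2, y axis) of the 9 probe sets in each of the 4 arrays; black bars are genotype means and the dotted line is the filter on low values (6.67). Knockout points lie above both heterozygous points in Cidea, Ucp1, both Ppargc1a probe sets (1, 10529977; 2, 10529979) and, by a narrow margin, Ebf2.

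Of the genes grouped as fat-restricted, which sets them apart from muscle and not from every other cell of skin, Cidea and Ucp1 were read. Cidea encodes a lipid droplet protein that enlarges droplets and is abundant in brown fat. It read 9.66 and 9.25 in heterozygous skin and 10.27 and 10.04 in knockout skin. Both knockout values lay above both heterozygous ones, and the gap between the means exceeded the spread within each pair. The Cidea difference was 0.70 (SE 0.15, n = 2 per genotype), a 1.62-fold higher mean, with a limma adjusted p of 0.051, just short of the threshold. Adjusted p ran from 0.0045 to 0.294 over 16 other settings and was under 0.05 in 8 of them. Leaving out heterozygous array 2 gave 0.49, and leaving out heterozygous array 1 gave 0.90.

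Ucp1, the uncoupling protein itself, was dim. It read 5.70 and 5.49 in heterozygous skin and 6.01 and 5.78 in knockout skin, below the filter of 6.67 in every array, so it was not among the tested probe sets. The knockout values lay above the heterozygous ones, but the gap between the nearest of them was smaller than the spread within either pair. The Ucp1 difference was 0.30, and in a fit with no filter its SE was 0.18 and its limma adjusted p 0.498, where 0.665% of 21789 probe sets passed. As deposited, Ucp1 read 5.68 and 5.68 against 5.84 and 5.78, a difference of 0.13. Signals this low compress differences.

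Of the genes shared with muscle, Ppargc1a was higher in both of its probe sets, and 1 of the 2 passed. It encodes PGC-1 alpha, the coactivator of mitochondrial and thermogenic genes. Probe set 10529979 read 7.90 and 7.88 in heterozygous skin and 8.40 and 8.45 in knockout skin. The 2 mice of each genotype nearly coincided, and the genotypes were far apart beside that. The difference was 0.54 (SE 0.11, n = 2 per genotype), 1.45-fold, with a limma adjusted p of 0.042. It ranged from 0.51 to 0.55 with any 1 array left out, but the adjusted p then ran from 0.042 (without heterozygous array 1) to 0.224 (without knockout array 1), and the call ended without heterozygous array 2 (0.083) or knockout array 2 (0.163). The call also ended with no filter (0.080), without a variance trend (0.062) and with probe sets of several genes tested too (0.134).

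The other Ppargc1a probe set, 10529977, went the same way with a wider spread. It read 7.24 and 7.53 in heterozygous skin and 7.81 and 7.75 in knockout skin, without overlap. Its difference was 0.39 (SE 0.14), 1.31-fold, with a limma adjusted p of 0.172. Leaving out heterozygous array 2 gave 0.56, and leaving out heterozygous array 1 gave 0.25.

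Dio2, the deiodinase that turns thyroxine into active thyroid hormone inside brown fat and other cells, did not pass. It read 7.12 and 6.59 in heterozygous skin and 6.72 and 6.65 in knockout skin, so both knockout values lay between the heterozygous ones. Its signal was low: the mean of 6.77 was just above the filter of 6.67, and the arrays numbered 2 read below that filter. The difference was -0.17 (SE 0.19, limma adjusted p = 0.681), with a 95% interval from -0.60 to 0.25. It was -0.45 without heterozygous array 2.

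**Figure D2:**
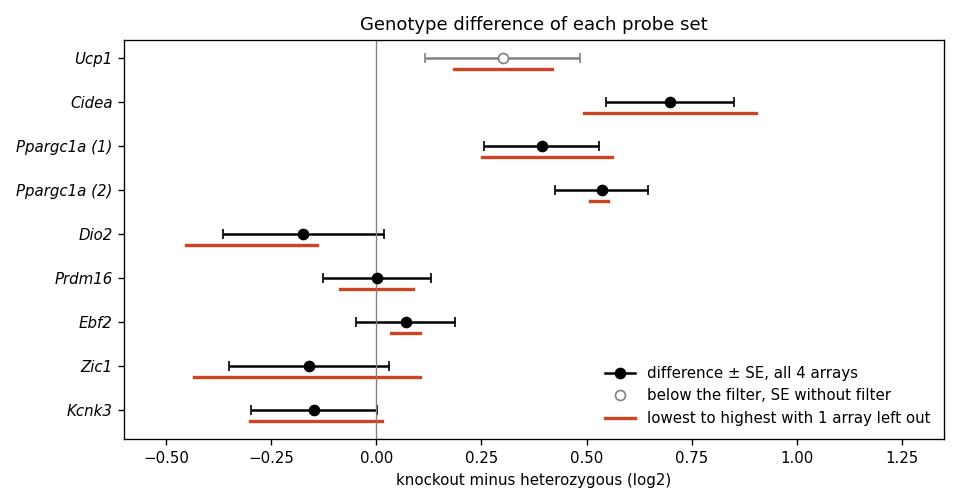
Difference between genotypes (log2, x axis) for each probe set with its limma SE, and in red the span of the difference when 1 of the 4 arrays is left out. Cidea (0.70), both Ppargc1a probe sets (0.39 and 0.54), Ucp1 and Ebf2 stay above 0 in every case, whereas Prdm16, Zic1 and Kcnk3 cross 0. Dio2 stays below 0 where it has a value, which it lacks without heterozygous array 1.

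The 4 regulators that other cell types also use did not pass, and their differences were small. Prdm16, which directs cells to the brown fat fate, read 7.56 and 7.38 in heterozygous skin and 7.51 and 7.43 in knockout skin. The knockout values fell inside the heterozygous range. The Prdm16 difference was 0.0008 (limma adjusted p = 0.998), with a 95% interval from -0.29 to 0.29. Its sign turned after median centring and with the deposited values (-0.04).

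Ebf2, a factor that opens brown fat enhancers in fat precursors, read 7.63 and 7.62 in heterozygous skin and 7.73 and 7.66 in knockout skin. The pairs did not overlap after normalization but did as deposited (7.60 and 7.66 against 7.74 and 7.65), and the difference was 0.07 (SE 0.12, limma adjusted p = 0.801), with a 95% interval from -0.19 to 0.33. These intervals leave room for differences of the size seen in Dio2 or Zic1.

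Zic1, a zinc finger factor of the dorsal neural tube and of brown fat, read 8.65 and 8.13 in heterozygous skin and 8.45 and 8.01 in knockout skin. Kcnk3, a potassium leak channel that is enriched in beige and brown fat, read 7.97 and 7.70 in heterozygous skin and 7.85 and 7.52 in knockout skin. In both genes the arrays numbered 1 were high and those numbered 2 low in each genotype, and the genotypes overlapped. The Zic1 difference was -0.16 (SE 0.19, limma adjusted p = 0.707, 95% interval -0.59 to 0.26). The Kcnk3 difference was -0.15 (SE 0.15, limma adjusted p = 0.648, 95% interval -0.48 to 0.19). Without heterozygous array 1 the Zic1 difference was 0.10, and without knockout array 2 those of Zic1 and Kcnk3 were 0.06 and 0.01.

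Sebaceous gland genes were higher in the same arrays as Cidea. In whole tissue, a change in the number of cells of a type cannot be told apart from a change in RNA per cell. Of the 10 sebocyte genes listed, 9 were tested, and all 9 were higher in the knockout, as were 54.2% of all tested probe sets. That list was chosen with its values in these arrays known. Of the 9, 2 passed, beside 1.98% of all tested: Awat1, a wax ester enzyme (1.12, SE 0.16, limma adjusted p = 0.012), and Elovl3, a fatty acid elongase that brown fat also uses (0.82, SE 0.12, adjusted p = 0.012). The log2 of their summed signal was 14.2 and 13.8 in heterozygous arrays and 14.7 and 14.7 in knockout arrays. The Cidea value minus the mean of the sebocyte genes was -1.01 and -1.05 in heterozygous arrays and -0.86 and -1.05 in knockout arrays, so on this scale the genotypes overlapped. An offset between probe sets has no meaning of its own, and only its change across arrays is read here. The part of these cells in the Cidea value was not tested.

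Genes listed for adipocytes went both ways. Of 16 tested adipocyte genes 11 were higher and 0 passed, with 5 at an unadjusted p under 0.05 in limma, 4 of them higher and 1 lower, beside 17.9% of all tested probe sets. Retn, Agpat2 and Slc2a4 read above the heterozygous arrays in both knockout arrays, with differences of 0.47, 0.47 and 0.30, and leptin (Lep) had a difference of -0.60 with overlapping genotypes. The median of the list was 0.09, which leaving out heterozygous array 2 brought to -0.07 and leaving out heterozygous array 1 to 0.30. The log2 of their summed signal was 15.6 and 15.1 in heterozygous arrays and 15.4 and 15.5 in knockout arrays, which overlap. Adipoq, the adiponectin gene, read 11.49 and 10.73 against 10.96 and 11.43, a difference of 0.08 (SE 0.23). Lep, the leptin gene, differed by -0.60 (SE 0.22), Retn, resistin, by 0.47 (SE 0.20) and Acvr1c, an activin receptor of fat cells, by 0.48 (SE 0.20), and none of them passed. The Cidea value minus the mean of the adipocyte genes was -1.31 and -1.29 in heterozygous arrays and -0.52 and -0.89 in knockout arrays, without overlap, a change of 0.60.

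The tested genes with the profile most like that of Cidea, the member with the widest range (1.02), were Pvt1, Acox3, Ctps, Gk5 and Rdh12. Their values, centred on their own mean over the 4 arrays, lay on average within 0.018 (Pvt1 and Acox3) to 0.029 (Rdh12) of those of Cidea. Acox3, a peroxisomal acyl-CoA oxidase, passed with a difference of 0.70 (SE 0.15, limma adjusted p = 0.044), and the other 4 did not pass. Pvt1 was above the filter of 6.67 only through its knockout arrays (7.26 and 7.04), as it read 6.64 and 6.28 in heterozygous arrays.

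Skeletal muscle genes went both ways. Of 23 tested muscle genes 17 were higher, against 54.2% of all tested probe sets, and 6 lower, and the list mean of 10.14 and 10.66 in heterozygous arrays overlapped that of 10.80 and 10.54 in knockout arrays. An adjusted p under 0.05 was found for 3 of the 23, beside 1.98% of all tested, among them Casq1, a calcium store protein (0.82, SE 0.12), and Myh1, a fast myosin (1.32, SE 0.21), with limma adjusted p of 0.013 and 0.015. The third was Mylpf, a fast myosin light chain (0.84), named after its value was seen. At an unadjusted p under 0.05 in limma, 15 of the 23 were higher and 3 lower, beside 17.9% of all tested probe sets in either direction. All 16 fast-fibre and shared genes were higher, with a median of 0.52, and 5 of the 6 slow-fibre genes were lower, with a median of -0.65. Myoglobin (Mb, -0.11) was in neither part, and that split of the list was made with the values known. The summed signal of the fast-fibre and shared genes (log2) was 15.8 and 15.9 in heterozygous arrays and 16.5 and 16.2 in knockout arrays, and that of the slow-fibre genes was 9.74 and 11.02 against 10.04 and 9.89.

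Set against the mean of all 23 muscle genes, the second Ppargc1a probe set read -2.24 and -2.78 in heterozygous arrays and -2.40 and -2.09 in knockout arrays, and the first read -2.91 and -3.12 against -2.998 and -2.784. That mean includes the slow-fibre genes, whose own mean was highest in heterozygous array 2. The genotypes overlapped in both probe sets, with changes of 0.27 for the second and 0.12 for the first. Against the sebocyte genes the genotypes overlapped as well, at -2.77 and -2.42 against -2.72 and -2.64 for the second probe set. The first read -3.44 and -2.76 against -3.32 and -3.34. The changes there were -0.09 for the second and -0.23 for the first. Against the adipocyte genes the second probe set read -3.08 and -2.65 in heterozygous arrays and -2.39 and -2.48 in knockout arrays, without overlap, while the first read -3.74 and -3.001 against -2.98 and -3.18, with overlap. The mean of the slow-fibre genes was 7.11 and 8.40 in heterozygous arrays 1 and 2 and 7.27 and 7.16 in knockout arrays. In heterozygous array 1 Tnnt1 read 7.06, against 8.28 to 8.58 in the other arrays. Myl2, Tnnc1 and Myh7 read higher in heterozygous array 1 than in both knockout arrays. In heterozygous arrays 1 and 2 Ppargc1a read 7.24 and 7.53 (first probe set) and 7.90 and 7.88 (second). The part of muscle in the Ppargc1a value was not tested.

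**Figure D3:**
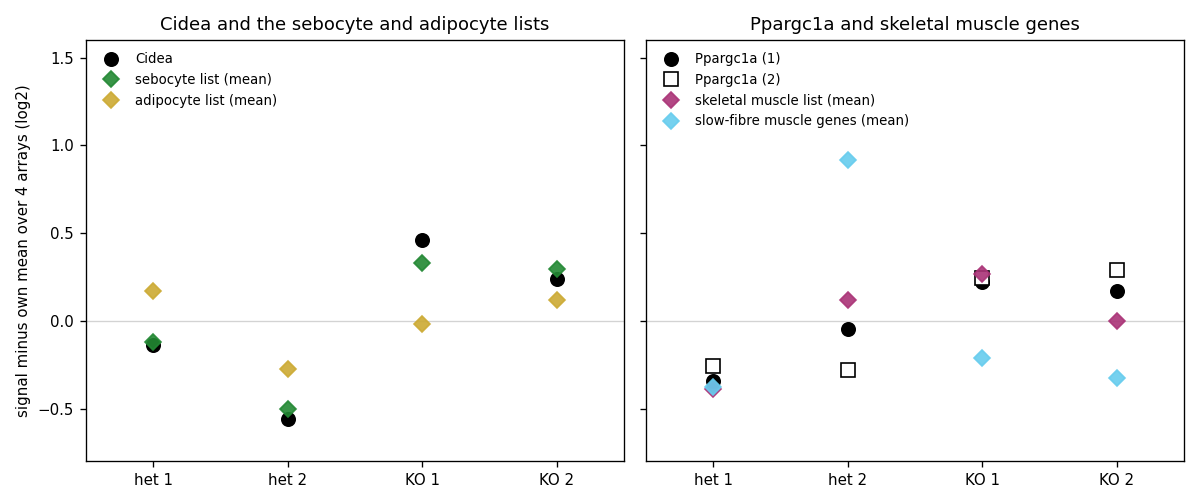
Signal minus its own mean over the 4 arrays (log2, y axis) for each array (x axis), with gene lists as the mean of their tested genes. Left, Cidea lies near the sebocyte list in every array, a list chosen with its values in these arrays known. It lies away from the adipocyte list in both heterozygous arrays and knockout array 1. Right, both Ppargc1a probe sets are higher in the knockout arrays, and the mean of the 23 muscle genes overlaps between genotypes. The slow-fibre genes among them, set apart with their values known, peak in heterozygous array 2.

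Further genes of the thermogenic pathway were read from lists by role. In adrenergic signalling 9 probe sets were tested and 1 passed, beside 1.98% of all tested. It was a probe set of Pde4d, which breaks down cyclic AMP (0.98, SE 0.14, limma adjusted p = 0.012). Probe set 10407122 of Pde4d, below the filter, read 6.36 and 6.39 against 6.93 and 6.95, a difference of 0.57. Another Pde4d probe set, 10407097, differed by 0.16 (SE 0.12), so the 3 readings of Pde4d had one direction and disagreed in size. Pde3b, also a phosphodiesterase, differed by 0.14, and the cyclic AMP response factors Atf2 and Creb1 by -0.14 and -0.04, none past the threshold.

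Among 20 probe sets of thermogenic transcription factors 1 passed, beside 1.98% of all tested. Nr1d1, the repressor REV-ERB alpha, fell by 0.73 on the log2 scale (SE 0.13, limma adjusted p = 0.024), from 8.46 and 8.60 in heterozygous skin to 7.93 and 7.67 in knockout skin. Thra, a thyroid hormone receptor, differed by 0.37 (SE 0.13), Tbx15, a T-box factor of fat and muscle, by 0.33 (SE 0.12) and the second Nfia probe set, a nuclear factor I of brown fat, by -0.35 (SE 0.11), none past the threshold. The median of the list was 0.09.

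Thermogenic effectors, the enzymes and carriers that heat production uses, were mostly higher. Of 22 probe sets, 2 of them for Fabp3, 20 were higher, beside 54.2% of all tested. An adjusted p under 0.05 was found for 3, all upward, beside 1.47% of all tested upward and 1.98% in either direction. The median was 0.25, against 0.02 for all tested probe sets. Those that passed were Elovl3, named above, Gatm, which makes the precursor of creatine (0.64, SE 0.12, limma adjusted p = 0.029), and Cox8b, a cytochrome oxidase subunit of muscle and brown fat (0.63, SE 0.13, adjusted p = 0.043), which was named after its value was seen. Otop1, a proton channel enriched in brown fat, differed by -0.29 (SE 0.13), and Cpt1a, the liver form of the carnitine shuttle, by -0.01, and neither passed. Without knockout array 1 the median of this list was 0.12. The sebocyte genes given above were higher in the same arrays. So were all 16 fast-fibre and shared muscle genes of the split given above, while 5 of the 6 slow-fibre genes were lower. The part of these cells in the effector values was not tested.

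Markers of brown and beige lineage moved in few cases. Of 15 probe sets 2 passed, beside 1.98% of all tested. Both were homeobox genes of body position used as marks of white and beige fat: Hoxc8 (1.25, SE 0.13, limma adjusted p = 0.0055) and Hoxc9 (0.82, SE 0.15, adjusted p = 0.026). Hoxc8 read 7.86 and 7.80 in heterozygous skin and 8.91 and 9.25 in knockout skin. Cited1 and Epsti1 differed by -0.26 (SE 0.12) and -0.22 (SE 0.15), and the median was 0.02. Fbxo31, named after its values were seen, had probe sets of opposite sign. They differed by 0.42 (SE 0.13) and -0.13 (SE 0.12), and neither passed. None of 7 secreted factors passed with limma, and 0 had an unadjusted p under 0.05, beside 17.9% of all tested probe sets. Vegfa differed by 0.23, Nrg4 by 0.22, Fgf21 by -0.10 and Bmp8b by -0.08.

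Markers of other cells in skin were set beside these values. Medians were 0.06 over 7 dermal fibroblast genes, led by Col3a1 (0.20) and Pdgfra (0.08) upward and Dpt (-0.29) and Dcn (-0.10) downward. They were 0.01 over 4 Schwann cell genes (S100b 0.04, Mal 0.03, Sox10 -0.10), and 0.00 over 4 endothelial genes (Kdr 0.19, Cdh5 0.07, Pecam1 -0.10, Tek -0.08). The epidermis and follicle genes had a median of 0.18, which was -0.10 when heterozygous array 2 was left out and 0.45 when array 1 was, with Krt15 at 0.22, Lor at 0.16 and Krt10 at 0.00. The smooth muscle list had a median of -0.30, the value of Acta2, smooth muscle actin, which read 11.82 and 11.54 in heterozygous skin and 11.51 and 11.25 in knockout skin, lower in both knockout arrays. In that list Des, which skeletal muscle also makes, passed (0.97, SE 0.13, limma adjusted p = 0.011), while Cnn1 (-0.62, SE 0.14), Myh11 (-0.36, SE 0.14) and Tagln (0.10, SE 0.14) did not. In the muscle list Myh7 and Myl2, of slow fibres, had the smallest p among lower genes (-0.73 and -1.16). Myl2, with a mean of 6.68, was above the filter of 6.67 only through heterozygous array 2. It read 8.19 in that array and between 6.07 and 6.32 in the others.

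**Figure D4:**
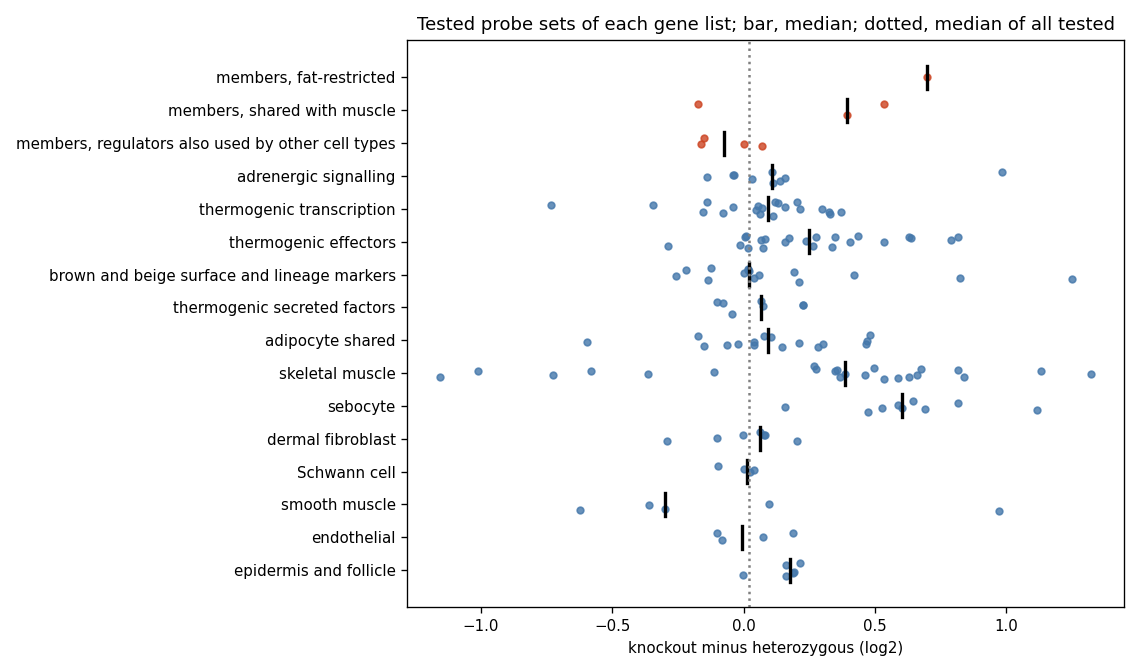
Difference between genotypes (log2, x axis) of every tested probe set in each gene list, members in red; bars are list medians and the dotted line is the median of all tested probe sets (0.02). Sebocyte genes (median 0.60), listed with their values known, lie to the right, and skeletal muscle genes spread from -1.16 to 1.32. The lowest of these, Myl2, was above the filter only through heterozygous array 2.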

How the data were processed

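Total RNA of whole back skin from 4 mice was labelled for Affymetrix whole-transcript arrays. Affymetrix Expression Console 1.1.1 and PLIER 2.0 are named in the submitters' processing notes. The deposited values, 1 table of 35557 probe sets, were taken as log2 from their range (2.54 to 14.9), since their scale and any scaling step are not stated in the labels. Whole-transcript summaries can hide changes in part of a transcript, and low signals compress differences.

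Quartiles of the arrays differed by up to 0.34, so quantile normalization was applied. A single gene was annotated for 21789 probe sets, several for 1621, and no gene for 12147. Of those with a single gene, 21698 were matched by gene identifier to a reference symbol. Tested were 16341 probe sets of 1 gene whose mean exceeded the lower quartile of their kind (6.67, the 25th percentile). The test was limma 3.58.1 in R 4.3.3 (eBayes with a trend by mean, 2 residual degrees of freedom), Benjamini-Hochberg adjusted over all of them, and it was tested on simulated data. SEs are moderated. The labels call the mice biological littermate replicates. At most 0.104% of values were equal in any 2 arrays.

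Members and gene lists were chosen with earlier results of these data known. Named are all members, Arntl, from each list the 2 genes per direction with the smallest p, and the 5 genes closest in profile to the member with the widest range; other names were added after their values were seen. Alternatives covered scaling, filters, offsets of 16 and 64 on the linear scale, the variance prior, 1 probe set per gene, a replicate block and each array left out; testing probe sets of several genes too was added afterwards.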

Additional observations from a re-analysis of the deposited data

How the results depend on the processing

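Cidea, Ucp1, both Ppargc1a probe sets, Dio2 and Ebf2 kept their sign under each of the alternatives that gave them a value. Prdm16 turned after median centring (-0.00022), with the deposited values (-0.036), without heterozygous array 2 (-0.087) and without knockout array 1 (-0.034); with 1 array left out it ran from -0.087 to 0.088. Zic1 ran from -0.434 to 0.103 and Kcnk3 from -0.302 to 0.0139 with 1 array left out, turning positive without heterozygous array 1 (Zic1, 0.103) or knockout array 2 (Zic1, 0.061, Kcnk3, 0.014).

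The count of member probe sets past the threshold was 1. It was 2, namely Cidea and the second Ppargc1a probe set, after median centring, with the deposited values, at the 50th percentile filter, with a robust prior and when each gene kept 1 probe set. It fell to 0 with no filter, without a trend, and with probe sets of several genes tested too. Each of these settings had 3 member probe sets at an unadjusted p under 0.05 in limma. With 1 array left out it ran from 0 to 2. The count over all probe sets, 323, was 913 after median centring, 544 with the deposited values and 145 with no filter, and ran from 37 to 958 with 1 array left out. It was 0 with probe sets of several genes tested too (2713 at an unadjusted p under 0.05), also without the 1 of them that had zero variance. There the prior degrees of freedom of limma were 4.12, against 7.73; the cause was not tested.

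The split of probe sets with an unadjusted p under 0.05 was 1890 upward and 1043 downward. Median centring gave 3047 and 796, and the deposited values 2870 and 1116. Median centring moved the median of all tested probe sets from 0.02 to 0.10. With mouse number as a replicate block, 1235 probe sets and 2 members passed, Cidea and the second Ppargc1a probe set. Nothing in the labels ties that number to a litter, and the deviations of same-numbered mice correlated at 0.167 across probe sets. The 50th percentile filter left 3 member probe sets tested, and Dio2 gave no value without heterozygous array 1. Fits on 3 arrays take the single remaining mouse of a genotype to vary as the other pair did. The small number of arrays and the low signal of Ucp1 limit these values.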
